A study of Mus musculus with 31 samples.

Results

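Ependymal cells in single-cell libraries of mouse spinal cord were examined here for those rich in transcripts of 3 genes, Pvalb, Sncg and Ly6h. A cell was taken as a member when its raw unique molecular identifiers (UMIs, each marking 1 captured transcript) of the 3 genes summed to 5 or more. The rule found 625 members among the 3285 cells that the authors kept in their cell table, or 19.03% (exact 95% binomial interval 17.7 to 20.4%, counting error only), and left 2660 remaining kept cells. The 3 genes therefore differ between members and the rest by construction, and their levels are given as a description of the choice. Of the 215 cells in the deposited matrix that the authors' table leaves out, 0 reached 5 UMIs, which allows a share of up to 1.70%.

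The study used mice of C57BL/6 background in 2 genotypes, written Foxj1-tdT and Foxj1-Olig2-tdT in the labels, with spinal cord tissue digested and cells sorted by flow cytometry. Single-cell RNA libraries came from 1 sample each of uninjured cord and cord at 2 and 4 weeks post injury (wpi) in both genotypes, prepared with the 10x droplet method. Bulk RNA libraries were made by Smart-seq2 from small pools of sorted cells, 2 for each of uninjured cord, 1 day and 5 days post injury (dpi) in both genotypes. A single-cell chromatin accessibility (scATAC) sample held non-neuronal cells of uninjured cord. The labels set the 2 genotypes side by side before and after injury. Foxj1 is a transcription factor of motile ciliated cells and is named in both genotypes. Olig2 is a transcription factor of the oligodendrocyte lineage and is named in the second genotype only. The alleles behind these names, the type of injury, the ages of the mice and the number of animals behind each library are not given in the sources used here.

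The ependyma is the ciliated epithelium around the spinal cord's central canal, and the beating of its motile cilia moves cerebrospinal fluid. Motile cilia are built from axonemal dyneins, radial spokes and tektins, with intraflagellar transport carrying parts to the tip. Parvalbumin, the product of Pvalb, is an EF-hand calcium buffer best known from fast-spiking interneurons and fast muscle. Gamma-synuclein (Sncg) is a small soluble protein of sensory and motor neurons, and Ly6h is a GPI-anchored protein of the Ly6 family found in the nervous system. Sntn encodes sentan, a protein of the tips of motile cilia, and was proposed as a further marker of these cells. It took no part in the rule. The proposal was made with earlier results of these data known, so its level in members is not a separate prediction.

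The kept cells carry 6 library codes (017, 018, 019, 020, 072 and 073), and nothing in the sources used here ties a code to a genotype or time. The deposited matrix was therefore treated as 1 pooled sample. Members were compared with the remaining kept cells of the same code, no test was run on cells, and intervals cover counting error only. Intervals of ratios cover the members' counts alone and take the expected number as known, so they are too narrow for rare genes. No value by code can be set beside a genotype or time of the bulk libraries. The members' median depth was 6778 UMIs and 2684 genes per cell, against 5470.5 UMIs and 2245 genes in the rest. Barcodes shared between codes numbered 7, and 0 of them belonged to a member.

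Members made up very different shares of the 6 codes. The counts were 42 of 362 kept cells in code 017 (11.6%), 244 of 895 in code 018 (27.3%) and 30 of 339 in code 019 (8.85%). They were 37 of 337 in code 020 (10.98%), 249 of 992 in code 072 (25.1%) and 23 of 360 in code 073 (6.39%). Codes 018 and 072 thus gave most of the members. A fixed number of UMIs favours deeply sequenced cells, so cells with at least 2000 UMIs were also thinned to 2000 and chosen at 2 or more rule UMIs. This left out 133 of the 3285 cells, 2 of them members and 64 of them among the 362 cells of code 017. The thinned shares, in the same order of codes, were 31.2%, 31.9%, 11.2%, 10.9%, 21.9% and 5.56%. Code 017 moved most, and codes 019, 020 and 073 stayed below the other three. The thinned choice held 675 of 3152 cells and shared 450 of them with the members, which is 72.2% of the 623 members that could be thinned and 66.7% of the thinned choice.

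The 3 rule genes did not mark the same cells in every code. Of the members, 78.1% had a Pvalb UMI, 88.6% an Ly6h UMI and 25.6% an Sncg UMI. All 3 transcripts were seen together in 119 members, Pvalb with Ly6h in 298, Ly6h alone in 100 and Pvalb alone in 67. Sncg joined Ly6h in 37 and Pvalb in 4. Ly6h was present in 100% of members of code 017, 99.6% of code 018 and 97.2% of code 072, but in 33.3% of code 019, 24.3% of code 020 and 34.8% of code 073. Pvalb went the other way, from 59.5% of members in code 017 and 76.2% in code 018 to 96.7% in code 019 and 100% in code 020. In code 019 Sncg was at 0 UMIs in the members. The label's 3 genes thus chose mostly Ly6h-rich cells in codes 017, 018 and 072 and mostly Pvalb-rich cells in codes 019, 020 and 073.

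As CPM (UMIs of a gene per 1000000 UMIs, with the 3 rule genes left out of the total), Pvalb ran from 312 to 1188 over the 6 codes in members and from 33.2 to 96.6 in the rest. Sncg ran from 0 to 231 in members and from 0.55 to 15.7 in the rest, and Ly6h from 45.9 to 1537 against 22.3 to 333. The levels of Ly6h in members of codes 020 (45.9), 019 (105) and 073 (95.01) lay below its level in the remaining cells of code 017 (333). Cells with exactly 5 rule UMIs numbered 109 and had 189 CPM of Sntn, and cells with exactly 4, just outside the rule, numbered 182 and had 84.3 CPM.

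Sntn had the most UMIs in members of any gene past the size rule given further on. Its level in members was 362 CPM in code 017, 202 in code 018, 383 in code 019, 600.4 in code 020, 168 in code 072 and 269.8 in code 073. In the remaining cells it was 41.4, 10.1, 83.8, 49.8, 18.03 and 30.8 CPM in the same order. Members lay above the rest in each of the 6 codes, and the lowest member value was above the highest value of the rest. Members held 1185 Sntn UMIs against 114 expected from the remaining cells of their own codes, a ratio of 10.42 (95% Poisson interval 9.84 to 11.04), and the ratio by code ran from 4.57 to 20.01. After thinning to 2000 UMIs, 30.2% of members had an Sntn UMI (interval 26.6 to 33.9%), against 4.15% of the remaining cells, and none of the thinned oligodendrocyte-like cells did (upper bound 2.91%). Without thinning the shares were 50.4% and 7.52%, and 3.17% in oligodendrocyte-like cells, which should lack a gene of motile cilia. Median depths were 6778, 5470.5 and 9677.5 UMIs.

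The stretches of DNA before the starts of Sntn, Pvalb and Sncg are shown because the chromatin data further on bear on them. They are the 250 bases before each annotated start, from RefSeq on build GRCm38.p6 (the build also called mm10), read 5′ to 3′ on the gene's strand. Such windows were read for 10 of the 18 genes made up of the 3 rule genes and the 15 genes with the highest ratios described next, Sntn among them. Capitals mark the motifs that were searched on both strands: GTTGCC or its reverse GGCAAC, a core of RFX factor motifs, and GTAAACA or its reverse TGTTTAC, a core of forkhead motifs. RFX factors and the forkhead factor Foxj1 are regulators of motile cilium genes.
Sntn, chr14:13670626-13670875, plus strand: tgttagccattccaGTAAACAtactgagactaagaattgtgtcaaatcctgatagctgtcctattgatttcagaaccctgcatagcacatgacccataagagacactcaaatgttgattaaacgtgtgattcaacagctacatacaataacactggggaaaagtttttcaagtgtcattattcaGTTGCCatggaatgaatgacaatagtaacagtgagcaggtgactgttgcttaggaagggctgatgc
Pvalb, second start, chr15:78204238-78204487, minus strand: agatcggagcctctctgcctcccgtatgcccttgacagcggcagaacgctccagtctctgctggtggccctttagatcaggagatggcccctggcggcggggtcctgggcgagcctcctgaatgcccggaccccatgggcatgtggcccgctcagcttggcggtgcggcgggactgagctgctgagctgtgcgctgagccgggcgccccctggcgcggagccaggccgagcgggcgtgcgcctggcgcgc
Sncg, chr14:34374670-34374919, minus strand: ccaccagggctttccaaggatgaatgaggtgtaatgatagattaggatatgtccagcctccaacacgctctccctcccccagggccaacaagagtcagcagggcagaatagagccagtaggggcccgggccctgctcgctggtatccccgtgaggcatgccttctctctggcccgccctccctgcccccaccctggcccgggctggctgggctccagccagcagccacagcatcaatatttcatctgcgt
The Sntn window held GTAAACA 229 bases and GTTGCC 60 bases before the start, both on the gene's strand. No match was found in the windows of Pvalb and Sncg. Among 32851 promoter windows of this length, 10.4% held the first motif, 3.17% the second and 0.317% both. Of the 13 windows read for the 10 genes, 2 held the RFX core and 1 the forkhead core, and the second RFX match was in Caly, on the opposite strand and 39 bases before its first start. A match describes letters in a window and does not show that a factor binds there.

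Beyond Sntn, the members differed from the rest of their codes in a small number of genes. A gene was called higher when its members' UMIs were at least 2 times the expected number with the lower 95% bound at 1.5 or more, at least 10 UMIs were observed, and every code's ratio was above 1. By that size rule 44 of 12574 genes were higher (0.35%) and, with the rule mirrored, 19 were lower (0.151%). Leaving out each code in turn gave 40 to 55 higher genes and 16 to 53 lower genes, the latter 36, 53 and 46 without codes 017, 018 and 072. With every cell at the same weight 49 genes were higher and 51 lower. With the reference matched on depth 34 were higher and 27 lower, of which 30 and 11 were among the main calls. At a threshold of 3 rule UMIs 50 were higher, 34 of them among the 44. At a threshold of 8 rule UMIs 36 were higher, 24 of them among the 44. Over the 12189 genes with at least 10 expected UMIs the median ratio was 1.02, with 54.8% above 1. Of the 44 higher genes, 14 were called under each of the 16 alternative settings tried: Sntn, Rprm, Caly, Dlx4, Efna3, Slc38a3, Dkk3, Ass1, Wnt4, Cdkn1a, Prr29, Rabgap1l, Hhatl and Bank1. Of the 19 lower genes, 0 were. Among these settings, a ratio of 1.5 with the bound past 1 only relaxes the rule, so no call could be lost there.

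**Figure D1:**
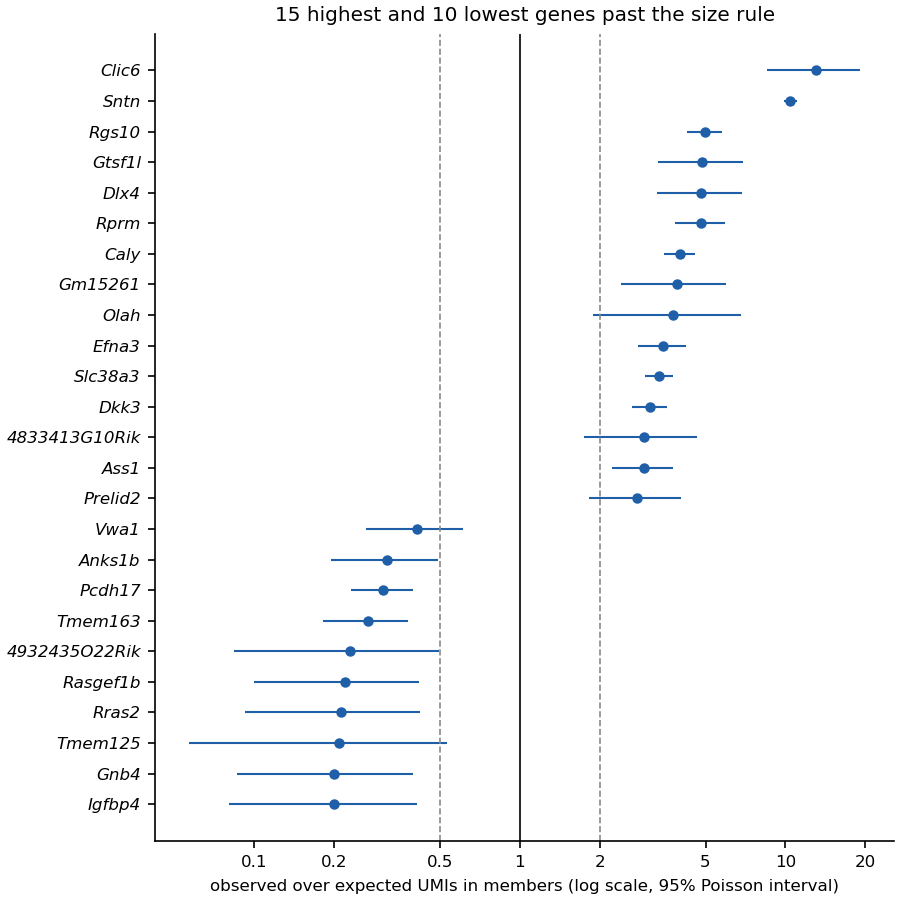
Observed over expected UMIs in members (horizontal log axis) for the 15 highest and 10 lowest genes past the size rule. Bars are 95% Poisson intervals (counting error of the members' UMIs only). Clic6 and Sntn lie above 10 and Igfbp4, Gnb4, Tmem125, Rras2 and Rasgef1b between 0.199 and 0.219; dashed lines mark ratios of 0.5 and 2.

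The highest ratio belonged to Clic6, a chloride intracellular channel family member known from choroid plexus, with 26 UMIs against 1.99 expected (ratio 13.05, interval 8.52 to 19.1). Its level was 3.80 to 12.5 CPM in members and 0 to 3.22 CPM in the rest, so the gene was rare everywhere. Only 0.338% of the remaining cells had a Clic6 UMI, and the interval leaves out the counting error of that reference. It was not called, at a ratio of 7.41, within the 8 ependymal-like clusters described further on that were led by no other class. Of the choroid plexus list it was the only gene called, Ttr had a ratio of 1.06 and Folr1 of 0.82, and Kl and Otx2 were at 0 in the members.

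Rgs10, a regulator of G protein signalling, held 166 UMIs against 33.4 expected (ratio 4.97, interval 4.24 to 5.79). Its level was 62.5, 39.6, 54.7, 45.9, 20.5 and 22.8 CPM in members of codes 017, 018, 019, 020, 072 and 073, against 3.83 to 15.5 CPM in the rest, without overlap. Rgs10 was not called when members were chosen at a threshold of 8 rule UMIs. Slc38a3, a glutamine transporter, lay in a narrow band of 41.7 to 50.6 CPM in members of all 6 codes and at 11.5 to 23.2 CPM in the rest (270 UMIs, ratio 3.34, interval 2.96 to 3.77). Caly, encoding the vesicle protein calcyon, had 22.4 to 128 CPM in members against 2.88 to 46.4 CPM in the rest (ratio 4.003, interval 3.48 to 4.58). It was higher in each code, but codes 019, 020 and 073 exceeded the others in both classes, so the ranges overlapped. Efna3, the membrane-bound ligand ephrin-A3, had a ratio of 3.45, and Dkk3, a secreted protein of the Dickkopf family, a ratio of 3.09. Wnt4, a secreted Wnt ligand, came below the top 15 at 2.72.

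The remaining genes of the top 15 were Rprm (ratio 4.79, interval 3.84 to 5.91), whose product reprimo takes part in cell cycle arrest, the homeobox gene Dlx4 (4.81, interval 3.27 to 6.83), Gtsf1l (4.87, interval 3.31 to 6.91), Olah, an acyl hydrolase (3.79 on 11 UMIs), Ass1, the argininosuccinate synthase of arginine synthesis (2.92), and Prelid2 (2.77). The non-coding or unnamed transcripts Gm15261 and 4833413G10Rik had ratios of 3.89 and 2.94 on 21 and 18 UMIs. In thinned cells Rprm was detected in 3.21% of members and 13.8% of oligodendrocyte progenitor-like cells, and Caly in 6.26% and 17.2%, so both genes were seen more often in that other class. Dkk3 was detected in 6.42% of thinned members and 1.62% of the rest. It was about as frequent in thinned oligodendrocyte-like cells as in members, at 5.60% (interval 2.28 to 11.2%). Among called genes lower in that order, Cdkn1a, which encodes the cell cycle inhibitor p21, was abundant: 929 UMIs against 368 expected (ratio 2.53, interval 2.37 to 2.70). Its level was 149 to 350.2 CPM in members and 39.7 to 105 CPM in the rest, without overlap. Eda2r, a receptor of the tumour necrosis factor receptor family, had 2.40, and Prr29, Mpp1 and Ephx1 had 2.49, 2.23 and 2.18. Ccdc78, a component of the deuterosomes that make basal bodies in multiciliated cells, had 2.70 (143 UMIs). It was not called with the reference matched on depth or within ependymal-like clusters only. Of the 16 alternative settings, Ccdc78 was called in 10, Eda2r in 11, Prelid2 in 12 and Gtsf1l and Gm15261 in 13 each. Those for 4833413G10Rik and Olah were 9 and 6.

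**Figure D2:**
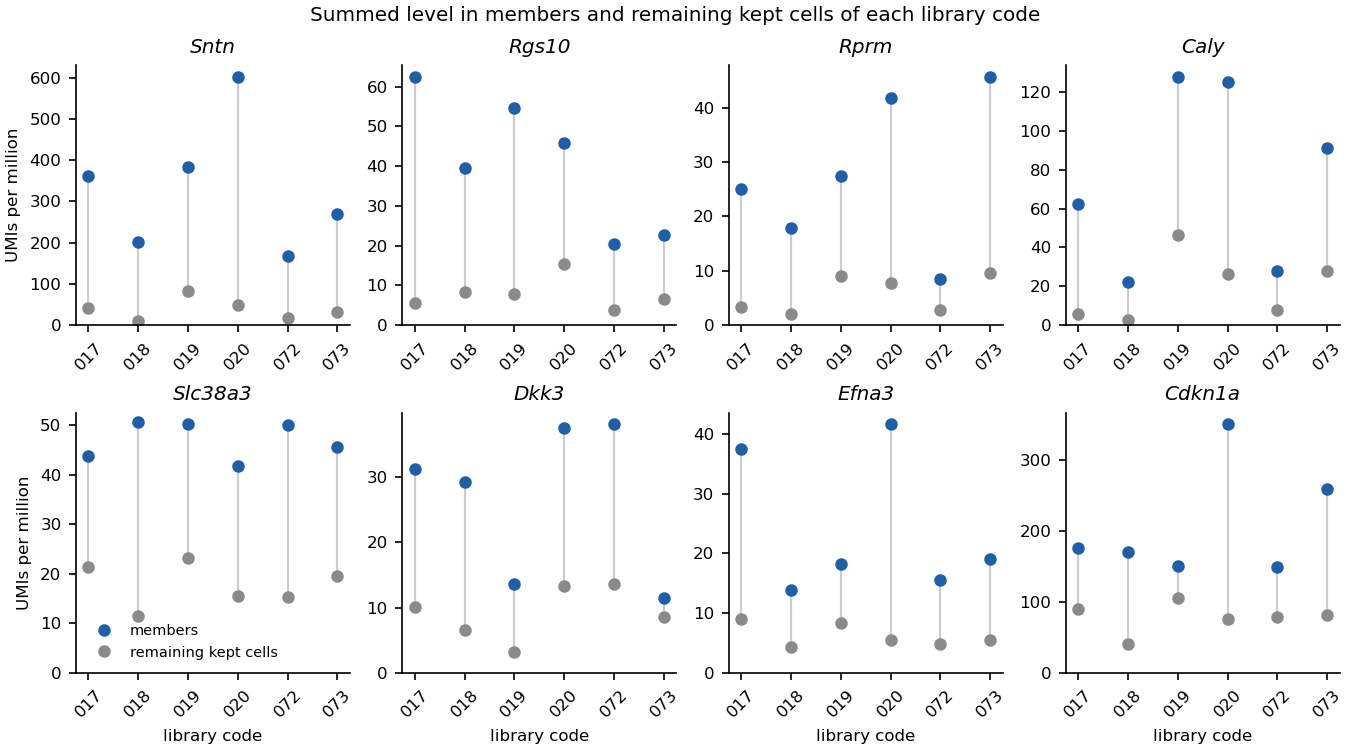
Level in CPM (vertical axis) of genes named in the text in members (blue) and remaining kept cells (grey) of each of the 6 library codes (horizontal axis), where grey lines join the 2 values of a code. For Sntn the members span 168 to 600.4 CPM and the remaining cells 10.1 to 83.8 CPM; for Slc38a3 the members span 41.7 to 50.6 CPM.

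The genes that were lower in members were mostly rare in them and uneven between codes. Igfbp4, a binding protein of insulin-like growth factors, had 7 UMIs against 35.2 expected (ratio 0.199, interval 0.08 to 0.41), and the G protein subunit gene Gnb4 had 8 against 40.0. Pcdh17, a protocadherin of cell adhesion, was the best counted of the 10 lowest, with 57 UMIs against 187 (ratio 0.304, interval 0.23 to 0.39). Its level was 0 to 60.8 CPM over codes in members and 11.5 to 319 CPM in the rest. Tmem163, a zinc transporter, had a ratio of 0.268, and Rras2, Rasgef1b, Tmem125, 4932435O22Rik, Anks1b and Vwa1 lay between 0.208 and 0.411. When only ependymal-like clusters were compared, 5 of the 19 stayed called lower and 14 did not.

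The members' leading genes were higher in cells with more rule UMIs, on both sides of the threshold. The genes shown had passed the size rule in these same cells. A step across the threshold was therefore fixed by that choice and is no separate result. Pooled over codes, which mix in different proportions in the steps, Sntn was at 17.5 CPM in the 1177 cells without a rule UMI, 26.4 in 1051 cells with 1 or 2 and 64.4 in 432 cells with 3 or 4. It was at 165 CPM in the 353 cells with 5 to 9, 233 in 200 cells with 10 to 19 and 357 in 72 cells with 20 or more. Rgs10 went from 5.97 to 6.71, 10.2, 22.6, 32.2 and 52.8 CPM over the same steps. Slc38a3 went from 13.1 to 18.6, 18.8, 42.7, 46.9 and 77.4 CPM. Cdkn1a did not follow to the end, with 66.8, 66.1, 104, 141, 210.1 and 187 CPM. The cells' median depth also went up, from 5146 UMIs in the first step to 8385 in the last.

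**Figure D3:**
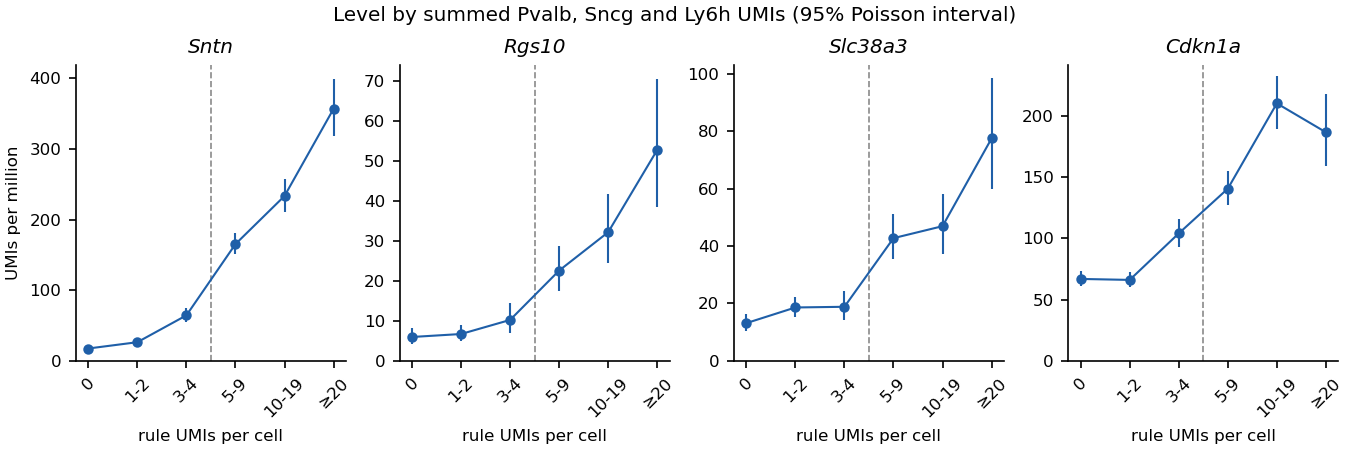
Level in CPM (vertical axis) of Sntn, Rgs10, Slc38a3 and Cdkn1a in kept cells binned by their summed UMIs of Pvalb, Sncg and Ly6h (horizontal axis), pooled over library codes, with 95% Poisson intervals. Sntn runs from 17.5 CPM at 0 rule UMIs to 357 CPM at 20 or more. The dashed line marks the rule of 5, and the step across it follows from how the genes were chosen.

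The ratio of Sntn to the remaining cells of the same codes was 16.6 in the 119 members with all 3 transcripts, 10.98 in the 298 with Pvalb and Ly6h, 8.10 in the 67 with Pvalb alone and 9.65 in the 37 with Sncg and Ly6h. It was lowest, at 4.69 (interval 3.59 to 6.01), in the 100 members with Ly6h alone, where Rgs10 was at 2.08 (interval 0.95 to 3.95) and Slc38a3 at 1.96 (interval 1.23 to 2.96). Cells were also chosen on 1 gene, a choice made after values had been seen. Of the cells chosen on a rule gene, 314 of 388 for Pvalb, 390 of 390 for Ly6h and 76 of 83 for Sncg were members. Any cell with 5 or more Ly6h UMIs is a member by the rule. The choices on rule genes therefore largely repeat the members, and their ratios are not separate evidence. With 3 or more Pvalb UMIs, 388 cells had ratios of 3.99 for Sncg, 2.29 for Ly6h and 7.11 for Sntn. With 5 or more Ly6h UMIs, 390 cells had 3.18 for Pvalb, 5.04 for Sncg and 5.65 for Sntn, and Sntn was above 1 in 3 of the 5 codes that held such cells. With 2 or more Sncg UMIs, 83 cells had 2.79 for Pvalb, 2.09 for Ly6h and 4.62 for Sntn, and Sntn was above 1 in 3 of the 5 codes that held such cells. Among those 83 cells Efna3 stood at 1.34 (interval 0.61 to 2.54), and 4833413G10Rik was at 0. With 3 or more Sntn UMIs, 233 cells, 174 of them members, had 4.93 for Pvalb, 6.10 for Sncg and 2.901 for Ly6h.

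Over 3152 kept cells thinned to 2000 UMIs, the genes most like the summed rule genes were ranked by Spearman correlation within codes, as a description across cells that share libraries. Of 8314 genes, Sntn came first at 0.335. Next were Tmem212 (0.235), Hsp90aa1 (0.234), Ccdc153 (0.232), Gas6 (0.220), Pltp (0.213), Tubb4b (0.1995), Chchd10 (0.193), Rarres2 (0.191) and Ptma (0.173). Tmem212, Ccdc153 and the tubulin gene Tubb4b belong to ciliated cells. These correlations were weak apart from that of Sntn.

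The members carried the genes of motile ependymal cells. Foxj1 was detected in 46.5% of thinned members and 40.7% of the rest, against 16% of oligodendrocyte-like cells and 0% of oligodendrocyte progenitor-like cells. Ccdc153 was detected in 96.6%, 87.2%, 9.60% and 3.45% of the same classes. Of 49 motile cilium genes with at least 10 expected UMIs, 48 had a ratio above 1, with a median of 1.22 against 1.02 over all genes, but only Sntn was past the size rule. The next were Tmem212 (1.51), Ccdc113 (1.44) and Cfap44 (1.43), and the dynein heavy chain gene Dnah5 stood at 1.36. Calml4, at 0.87, was the exception. The summed list was at 21546 to 27898 CPM in members and 10996 to 22149 CPM in the rest, higher in 6 of 6 codes. Intraflagellar transport genes had a ratio above 1 in 23 of 25 cases with a median of 1.17, and the 10 regulators of ciliogenesis a median of 1.09. Within the 8 ependymal-like clusters led by no other class, 48 of 49 cilium genes were above 1 with a median of 1.19, and with the reference matched on depth the values were 48 of 49 and 1.22. Sntn therefore stood far from its list, whose other members differed by 1.51 times at most.

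Genes of the immediate early response (transcription factors and regulators induced within minutes of a stimulus) were lower in members. Of 17 measured genes 1 had a ratio above 1, with a median of 0.67, and Ier3 was past the size rule (0.50, 81 UMIs). Junb stood at 0.45, Fos at 0.69, Jun at 0.73 and Egr1 at 0.73, while Jund stood at 1.17. The summed list was lower in members in 5 of 6 codes. Matching the reference on depth gave a median of 0.677 and those 8 clusters 0.657. Mitochondrially encoded transcripts were slightly lower (0 of 13 above 1, median 0.94), and ribosomal protein genes too (1 of 27 above 1, median 0.92), while nuclear respiratory chain genes were slightly above 1 in 23 of 24 cases (median 1.05). None of these 3 lists held a gene past the size rule.

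Among genes that set position along the cord, none passed the size rule. Of the 14 dorsoventral patterning genes with enough UMIs, 7 had a ratio above 1, and the median was 0.91. Msx1, a homeobox gene of the dorsal midline, had the highest ratio at 1.75 (interval 1.56 to 1.96), and was higher in 5 of 6 codes. Nkx6-1, a ventral homeobox gene, stood at 1.12, and Pax6 at 0.81. In the members 11 genes of this list were at 0, Shh, Foxa2, Pax3 and Pax7 among them. Of 25 Hox genes, which mark levels from head to tail, 5 were above 1 with a median of 0.89.

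Families related to the rule genes were not raised with them. Other calcium-binding protein genes had a ratio above 1 in 12 of 26 cases (median 0.99), with Calb1 at 0.94 and S100b at 0.97. The other synuclein and Ly6 family genes with enough UMIs were above 1 in 0 of 5 cases (median 0.72).

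Npy, which encodes neuropeptide Y and is known from neurons, was past the size rule with 498 UMIs against 236 expected (ratio 2.11, interval 1.93 to 2.30). Its level was 125, 86.7, 369, 138, 57.9 and 186 CPM in members of codes 017, 018, 019, 020, 072 and 073 against 60.5, 44.6, 104, 48.7, 34.4 and 64.7 CPM in the rest. It was higher in members of all 6 codes, although the ranges overlapped. It was not called, at a ratio of 1.67, within the 8 ependymal-like clusters led by no other class. Npy was fixed in the list of neurons that contact the cerebrospinal fluid. Of that list 3 genes had at least 10 expected UMIs and all 3 had a ratio above 1, with a median of 1.28. The summed list had 714 UMIs against 374 expected (ratio 1.91, interval 1.77 to 2.06), with members higher in 6 of 6 codes. Npy gave 498 of these 714 UMIs and 236 of the 374 expected, so the sum mostly repeats Npy. Within those 8 clusters the median was 1.12 and the summed ratio 1.46. Pkd2l1, the channel that defines those neurons, had 24 UMIs in members, all in 1 cell of code 018, and 2 in the rest. Of 10 general neuronal genes with enough UMIs 2 were above 1 (median 0.89), the summed list was higher in members in 0 of 6 codes, and Rbfox3, Nefl and Slc17a6 were at 0.

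Markers of other cell types moved with membership as follows, and their part in the gene differences was not tested beyond the comparisons given. Oligodendrocyte genes were above 1 in 0 of 14 cases (median 0.26, summed level 219 to 7901 CPM in members and 270.3 to 28017 CPM in the rest) and progenitor genes in 0 of 14 (median 0.57). Within the 8 ependymal-like clusters led by no other class the medians were 0.982 over 7 genes and 0.852 over 5. Microglial and myeloid genes were above 1 in 6 of 7 cases (median 2.96), at 34.2 to 1480 CPM in members and 39.4 to 875 CPM in the rest, and higher in 4 of 6 codes. None passed the size rule, and Cx3cr1 and Ccr2 were at 0. In code 018 a single member held 86 of 102 UMIs of Tyrobp, and a single member 57 of 88 UMIs of C1qb. Within those 8 clusters 0 of 5 myeloid genes were above 1, with a median of 0.844, and within all 11 ependymal-like clusters the median was 1.57. Fibroblast genes were above 1 in 0 of 4 cases. Pericyte markers reached 255 CPM in members in 1 code, with Pdgfrb, Abcc9, Myh11, Notch3 and Higd1b at 0, and the endothelial markers Cldn5, Cdh5, Ly6c1 and Slco1a4 were at 0.

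The kept cells were clustered on 2000 variable genes without the rule genes, to see whether the members lay together by other genes. Of 15 clusters, 11 were ependymal-like by markers, with 2654 cells and 568 of the members (90.9%). All 14 ependymal markers were also detected in the 2 clusters left unnamed below, so detection of these markers does not by itself separate ependymal cells from others. The 10 leading genes of each of these 11 clusters held no ependymal marker, and in 3 clusters they held a marker of another class. A cluster of 58 cells held the cell cycle genes Top2a and Ube2c. Another of 255 cells held the neuronal gene Stmn2, and 1 of 112 cells the astrocyte gene Gfap. Their ependymal name is therefore uncertain. The leading genes of the other 8 held no listed marker of any class, so their name rests on detection of ependymal markers alone. Among those 8, a cluster of 357 cells had the contractile genes Tagln, Cnn1 and Acta2 among its leading genes, and no class list held these. The 8 clusters, with 2229 cells and 528 members, were also compared alone, a choice made after the clusters had been seen. In those 8 clusters 41 genes were higher, 26 of them among the 44, and the ratio of Sntn was 7.59. An oligodendrocyte-like cluster of 126 cells held 2 members and a progenitor-like cluster of 59 cells held 4. The other 51 members lay in 2 unnamed clusters, 1 led by myeloid genes with 231 of 232 cells from code 020, and 1 led by Pla2g7, Bglap and Col1a1 with 204 of 214 cells from code 073. Left out together, those 2 clusters took 4 of the 44 higher genes from the calls, Ano3, Ccdc78, Cdc42bpg and Olah.

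A single ependymal-like cluster of 427 cells held 292 members, 46.7% of them (interval 42.8 to 50.7%), and members made up 68.4% of its cells. In the other clusters they made up 1.59 to 24.2%. The cluster's leading genes were Sntn, Adgre1, Prr29, Anxa8, Ephx1, Dkk3, Cdkn1a, Slc38a3, Traf3ip2 and Mpp1, which describe how it was formed. Adgre1 is best known as the macrophage marker F4/80. In members it had 31.2, 33.9, 31.9 and 27.2 CPM in codes 017, 018, 019 and 072 against 2.58 to 8.20 CPM in the rest of those codes. It had 4.17 against 6.09 CPM in code 020 and 3.80 against 2.40 CPM in code 073, on 1 member UMI each. The cluster held 61.9% of the members of code 017, 52.5% of code 018, 76.7% of code 019 and 46.2% of code 072, but 0 of 37 in code 020 and 0 of 23 in code 073. Of the remaining cells of the 6 codes it held 0 to 13.9%, with 1.33% in code 020 and 0% in code 073. Clustering was not corrected for code, and almost no cell of any kind from codes 020 and 073 lay in it. On average 49.8% of a member's nearest neighbours were members, against 11.9% for other cells, and by code 21.4 to 56.4% against 6.80 to 17.2%. The members were therefore concentrated in that cluster in 4 of the 6 codes, and neither filled it nor lay only in it. For codes 020 and 073 the cluster cannot show whether members differ from those of the other codes, since it nearly lacks their cells.

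The bulk libraries, which took no part in the choice of cells, show how the same genes behaved after injury and between genotypes. Of the 18 genes, 16 were in the authors' table of normalised counts and all 16 passed the filter on low values. Each contrast was read from 1 limma fit of 12 libraries on log2(value + 1), with Benjamini-Hochberg adjustment over 15811 genes. The labels do not tie the 2 libraries of a group to different animals, and the p-values may then reflect technical spread alone. In bulk RNA, fewer cells of a type and less RNA per cell cannot be told apart.

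Sntn fell after injury in both genotypes. In Foxj1-tdT its normalised counts were 1048 and 943 uninjured, 191 and 158 at 1 dpi, with 285 and 218 at 5 dpi. In Foxj1-Olig2-tdT they were 1630 and 1091 uninjured, 335 and 857 at 1 dpi, with 73.2 and 93.6 at 5 dpi. The uninjured libraries stood above all injured ones of their genotype. The log2 fold change in Foxj1-tdT was -2.51 ± 0.43 (SE) at 1 dpi (limma adjusted p = 0.0024) and -1.99 ± 0.43 at 5 dpi (adjusted p = 0.00941). In Foxj1-Olig2-tdT it was -1.31 ± 0.43 at 1 dpi, which missed the threshold (limma adjusted p = 0.0986), and -3.99 ± 0.43 at 5 dpi (adjusted p = 9.78e-05). The difference between the genotypes in the 5 dpi change, -2.003 ± 0.61, did not pass (limma adjusted p = 0.0793). At 5 dpi Sntn was lower in Foxj1-Olig2-tdT, with a log2 difference of -1.58 ± 0.43 (limma adjusted p = 0.0495), a call that was lost in 11 alternatives (adjusted p 0.0511 to 0.203), among them the loss of any Foxj1-tdT library or either 5 dpi library of Foxj1-Olig2-tdT. The 5 dpi call in Foxj1-tdT was lost without either uninjured library or 5 dpi library 2 of that genotype (limma adjusted p 0.0572 to 0.0793, the pair below taken as 1 included). Without 1 dpi library 2 the 1 dpi change in Foxj1-Olig2-tdT passed (limma adjusted p = 0.0268), and without library 1 so did the genotype difference at 1 dpi (0.0365).

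Ly6h was lower in Foxj1-Olig2-tdT, and its fall with injury was called in some contrasts only. Its normalised counts in Foxj1-tdT were 1352 and 1548 uninjured, 475 and 360.1 at 1 dpi, with 393 and 686 at 5 dpi. In Foxj1-Olig2-tdT they were 194.5 and 146 uninjured, 115 and 76.0 at 1 dpi, with 35.9 and 14.2 at 5 dpi. Every Foxj1-Olig2-tdT library lay below every Foxj1-tdT library. The genotype difference in log2 level was -3.09 ± 0.50 uninjured (limma adjusted p = 0.00566), -2.14 ± 0.50 at 1 dpi (adjusted p = 0.0621) and -4.46 ± 0.50 at 5 dpi (adjusted p = 0.000679). After injury Ly6h changed by -1.80 ± 0.50 at 1 dpi in Foxj1-tdT (limma adjusted p = 0.0233) and by -2.84 ± 0.50 at 5 dpi in Foxj1-Olig2-tdT (adjusted p = 0.00189). The change of -1.48 ± 0.50 at 5 dpi in Foxj1-tdT was not called (limma adjusted p = 0.0579). Nor was that of -0.85 ± 0.50 at 1 dpi in Foxj1-Olig2-tdT (limma adjusted p = 0.339). The 1 dpi call was lost without any of the 4 Foxj1-tdT libraries it compares (limma adjusted p 0.0525 to 0.152). The uninjured genotype call was lost without either uninjured Foxj1-tdT library (limma adjusted p 0.0668 to 0.0827). Leaving out either 5 dpi library of Foxj1-Olig2-tdT added calls for the 5 dpi change in Foxj1-tdT (limma adjusted p from 0.0322) and the genotype difference at 1 dpi (from 0.0434).

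Pvalb did not follow Sntn and Ly6h. In Foxj1-tdT it had 287.5 and 338 normalised counts uninjured, 1084 and 726 at 1 dpi, with 434 and 228 at 5 dpi. In Foxj1-Olig2-tdT it had 587 and 646 uninjured, 478 and 726 at 1 dpi, with 146 and 15.5 at 5 dpi. The 1 dpi libraries of Foxj1-tdT were the highest of that genotype, but the change of 1.51 ± 0.80 did not pass (limma adjusted p = 0.195), although it did without either 5 dpi library of Foxj1-Olig2-tdT (0.0222 and 0.0255). Pvalb fell at 5 dpi in Foxj1-Olig2-tdT, with a log2 fold change of -3.64 ± 0.80 (limma adjusted p = 0.00686), with both libraries below all others of that genotype and far apart from each other. In Foxj1-tdT the 5 dpi change was 0.01 ± 0.80. The difference between genotypes in that change was -3.66 ± 1.14 (limma adjusted p = 0.0825). Without 5 dpi library 1 of Foxj1-Olig2-tdT the genotypes differed at 5 dpi (limma adjusted p = 0.00199).

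Sncg was close to the floor in Foxj1-Olig2-tdT. It had 328 and 317 normalised counts in uninjured Foxj1-tdT, 196 and 83.1 at 1 dpi, with 76.0 and 29.2 at 5 dpi, and these did not overlap between times. In Foxj1-Olig2-tdT it was 24.2 and 0 uninjured, 23.4 and 0 at 1 dpi, with 12.6 and 10.0 at 5 dpi. The uninjured genotype difference of -6.01 ± 1.66 missed the threshold (limma adjusted p = 0.0560; 0.0139 to 0.0329 in 5 alternatives that called it, among them the loss of uninjured library 1 or either 1 dpi library of Foxj1-Olig2-tdT), and the 5 dpi change in Foxj1-tdT of -2.75 ± 1.66 did as well (adjusted p = 0.271).

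**Figure D4:**
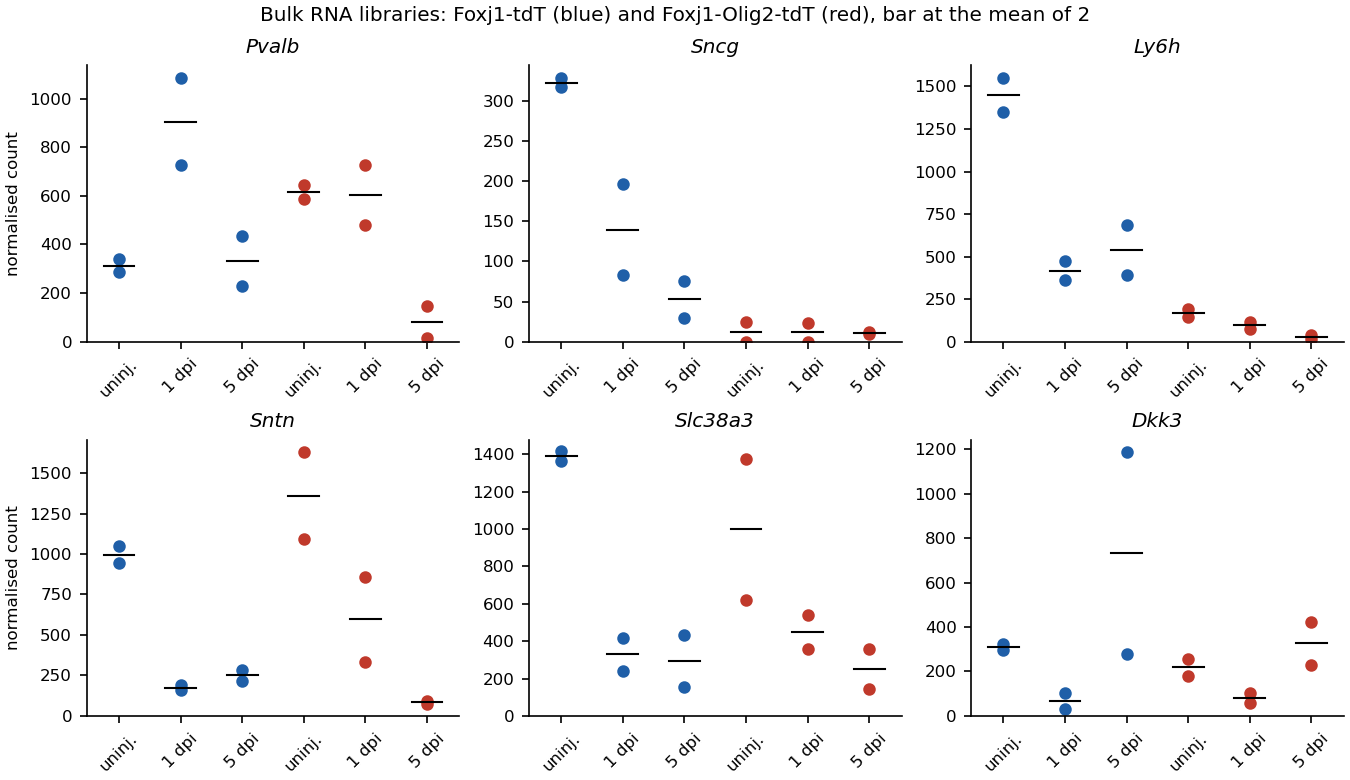
Authors' normalised counts of Pvalb, Sncg, Ly6h, Sntn and other genes of the set in each bulk library, by genotype and time (horizontal axis, 2 libraries a group). Sntn is highest in uninjured libraries of both genotypes, at 943 to 1630, and Ly6h is lower in every Foxj1-Olig2-tdT library than in any Foxj1-tdT library.

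Among the companions, Slc38a3 had 1416.5 and 1364 normalised counts in uninjured Foxj1-tdT, 418 and 242 at 1 dpi, with 156 and 431 at 5 dpi. Its log2 fold change was -2.12 ± 0.60 at 1 dpi (limma adjusted p = 0.0256) and -2.42 ± 0.60 at 5 dpi (adjusted p = 0.0169). In Foxj1-Olig2-tdT it went from 1375 and 622 uninjured to 357 and 538 at 1 dpi, and to 357 and 142 at 5 dpi, the latter a log2 fold change of -2.04 ± 0.60 (limma adjusted p = 0.0270). Dkk3 fell at 1 dpi in Foxj1-tdT, from 325 and 295 to 103 and 28.9 (-2.48 ± 0.76, limma adjusted p = 0.0368), and was 1187 and 279 at 5 dpi. Efna3 fell at 5 dpi in Foxj1-Olig2-tdT, from 161 and 118.5 to 27.2 and 24.1 (limma adjusted p = 0.0261). Each of these calls was lost without some single libraries. For Slc38a3 these were either uninjured library, 1 dpi library 2 or 5 dpi library 1 in Foxj1-tdT (limma adjusted p 0.112 to 0.142 at 1 dpi and 0.0879 to 0.116 at 5 dpi), and uninjured library 1 or 5 dpi library 2 in Foxj1-Olig2-tdT (0.158 and 0.201). For Dkk3 they were either uninjured Foxj1-tdT library, its 1 dpi library 2 and 5 dpi library 2 of Foxj1-Olig2-tdT (limma adjusted p 0.0505 to 0.216). For Efna3 they were either uninjured Foxj1-tdT library, uninjured library 1 and either 5 dpi library of Foxj1-Olig2-tdT (limma adjusted p 0.0521 to 0.108).

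Caly and Gtsf1l differed by genotype before injury. Caly was listed at 0 in both uninjured Foxj1-tdT libraries and at 167 and 347.5 in uninjured Foxj1-Olig2-tdT (limma adjusted p = 0.0435), and at 0 and 1.1 in the latter at 5 dpi (adjusted p = 0.0202 against uninjured). Gtsf1l was listed at 0 in both uninjured Foxj1-tdT libraries and at 49.4 and 84.5 in uninjured Foxj1-Olig2-tdT (limma adjusted p = 0.0362). No fold is given for either. The Gtsf1l call was lost without any 1 of the 4 uninjured libraries (limma adjusted p 0.0716 to 0.228), and so was that of Caly, also without any injured Foxj1-Olig2-tdT library (0.0592 to 0.236 over 10 alternatives). The 5 dpi call of Caly was lost without any of the 4 libraries it compares (limma adjusted p 0.0534 to 0.101). The other genes, Rgs10, Dlx4, Rprm, Olah, Ass1, Prelid2 and Clic6, passed no contrast, and Clic6 was listed at 0 in 10 of 12 libraries.

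Counted over the 16 genes, 4 fell at 1 dpi in Foxj1-tdT, where 27.4% of all genes tested were called, 15.4% higher and 12% lower. By 5 dpi 2 had fallen, where 23% of genes were called, 13.8% higher and 9.21% lower. In Foxj1-Olig2-tdT 0 of the 16 were called at 1 dpi by limma, where 8.09% of all genes were called, 5.93% higher and 2.16% lower. By 5 dpi 6 had fallen there, beside 31.2% of genes called, 17.2% higher and 14% lower. The genotypes differed in 3 genes uninjured (2 higher and 1 lower, against 7.79% called, 4.72% higher and 3.07% lower), 0 at 1 dpi (1.84% called, 1.29% higher and 0.55% lower) and 2 at 5 dpi, both lower (9.23% called, 3.36% higher and 5.88% lower). None of the 16 rose after injury by these calls. The median log2 fold change of the 16 was -0.66 at 1 dpi and -0.58 at 5 dpi in Foxj1-tdT, and -0.56 and -2.21 in Foxj1-Olig2-tdT, against medians of all genes between 0 and 0.12. The counts share the uninjured libraries within a genotype. Tests of the difference between genotypes called 0 of 16 at either time, beside 2.77% of all genes at 1 dpi (0.923% higher, 1.85% lower) and 7.28% at 5 dpi (2.64% higher, 4.64% lower).

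The 2 uninjured Foxj1-tdT libraries formed the tightest pair, with a median absolute log2 difference of 0.105 against 0.316 to 0.4998. They were not identical and were counted as 2. Counting them as 1 library left 1 gene called at 1 dpi and 0 at 5 dpi in Foxj1-tdT, 5 at 5 dpi in Foxj1-Olig2-tdT and 0 between uninjured genotypes. Sntn at 1 dpi in Foxj1-tdT then had a limma adjusted p of 0.0251, Ly6h at 1 dpi 0.132, and Ly6h between uninjured genotypes 0.0762.

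In the scATAC sample the authors assigned 1084 cells to 8 classes, among them EP1 (301 cells), EP2 (290) and EP3 (163), whose abbreviations the files do not spell out. Cut sites near Foxj1 were at 235 to 282 CPM (here cut sites per 1000000 of the class total) in the EP classes and 26.3 to 132 in the others, and near Ccdc153 at 97.3 to 127 against 0 to 24.4. Median cut sites per cell were 10137 in EP1, 46787.5 in EP2 and 30192 in EP3. With 1 sample there was no test, and intervals cover counting error only.

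Cut sites in peaks within 2 kb of the 3 rule genes and Sntn were densest in EP3 among the EP classes. EP3 also led near general ependymal genes, so this order is not particular to the 4 genes. In EP1, EP2 and EP3, Foxj1 had 250, 235 and 282 CPM and Ccdc153 97.3, 100 and 127. Tmem212 had 122, 115 and 133 CPM and Rarres2 56.1, 54.8 and 68.3. Pvalb had 36.2 CPM in EP1, 45.5 in EP2 and 65.5 in EP3, against 0 to 29.1 in the other 5 classes. Ly6h had 14.1, 16.6 and 28.3 in the EP classes, 16.5 in the class OPC and 0 to 5.07 in the other 4, and Sncg had 7.04, 6.87 and 17.7. Sncg was also at 19.7 in the class VEC, on 9 cut sites, with the start of the neighbouring gene Mmrn2 835 bases away. Sntn had 4 cut sites in EP1, 16 in EP2 and 20 in EP3, or 0.971, 1.05 and 3.65 CPM, and 0 in each of the other 5 classes.

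**Figure D5:**
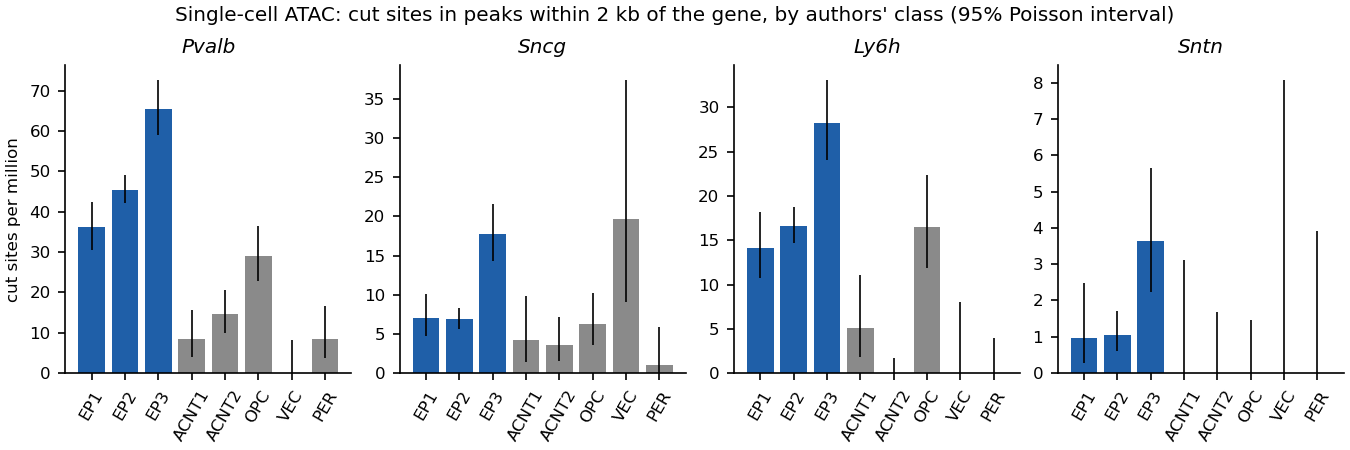
Cut sites in CPM of the class total (vertical axis, with 95% Poisson intervals) in peaks within 2 kb of Pvalb, Sncg, Ly6h and Sntn, for the authors' 8 classes, the 3 EP classes in blue. EP3 is the highest EP class for each gene, at 65.5, 17.7, 28.3 and 3.65 CPM.

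The comparison of EP3 with EP1 and EP2 pooled was chosen after these values had been seen. Its intervals cover the counts of EP3 only and take those of EP1 and EP2 as known. For Sntn that reference was 4 and 16 cut sites, so its interval is too narrow. The ratio was 3.54 for Sntn (interval 2.16 to 5.47), 2.56 for Sncg (2.08 to 3.13), 2.04 for Dlx4 (1.64 to 2.51), 1.76 for Ly6h (1.49 to 2.06), 1.65 for Slc38a3 (1.54 to 1.76) and 1.51 for Pvalb (1.35 to 1.67). These 6 of 16 genes were at 1.5 or more, against 3.5% of 25315 genes with at least 30 cut sites, whose median ratio was 1.00. Nothing is read from that count, since the values of 4 of these genes prompted the comparison. Rgs10 was at 1.495, Caly at 1.35, Dkk3 at 1.30, Efna3 at 1.17, Ass1 at 1.12 and Rprm at 1.10. Gtsf1l, Prelid2, Clic6 and Olah were between 0.20 and 0.80. The ratios moved with the distance allowed: with peaks within 10 kb they were 2.81 for Rgs10, 1.83 for Dlx4, 1.73 for Pvalb, 1.58 for Ly6h, 1.52 for Slc38a3 and 1.49 for Sncg, and that of Sntn stayed at 3.54.

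Most of the Sntn signal lay in a peak at chr14:13670692-13670969 that covers the gene's start and the last part of the Sntn sequence printed above, the GTTGCC included, and the GTAAACA lies outside it. That peak held 4, 10 and 20 cut sites in EP1, EP2 and EP3, and a second peak at chr14:13676223-13676301 held 0, 6 and 0. The Sncg peak at chr14:34374478-34375182 covers its start with 5, 55 and 54 cut sites, or 1.21, 3.60 and 9.86 CPM. The main Pvalb peak at chr15:78203752-78206022 covers the second of its 2 annotated starts and held 34.5, 43.1 and 58.6 CPM. The Ly6h peak, at chr15:75565573-75567660, held 14.1, 16.6 and 28.3 CPM.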

How the data were processed

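Single-cell RNA libraries, bulk RNA libraries and 1 single-cell chromatin sample were used, and bulk chromatin libraries were not used here. Per the submitters' processing notes Bowtie2, SAMtools, deepTools, Cell Ranger and Cell Ranger ATAC were used with build mm10, with no versions or settings given in the sources used here. The deposited single-cell matrix holds raw UMI counts of 27998 genes in 3500 cells, and the authors' cell table keeps 3285 of them. The authors' bulk table holds normalised counts, a signal scaled between libraries by a method not given in the sources used here, so that their read depth is unknown. Its totals lie between 12601290 and 13878102 per library. The deposited chromatin matrix holds raw counts of cut sites in 96670 peaks, with 1931 to 181707 cut sites per cell. No step to remove doublets was added.

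The members and gene lists were chosen with earlier results of these data known. Expected UMIs come from the gene's share in the remaining kept cells of the same code. The exact Poisson 95% intervals are those of the observed UMIs divided by the expected number, which was taken as known. Named genes are the 15 highest and 10 lowest past the size rule, Sntn, and up to 4 such genes of each list; other genes named were chosen after their values were seen. Cells were thinned with seed 7. Clusters used 30 components, 15 neighbours and Leiden resolution 1, and were named from markers. In bulk, genes needed 10 or more normalised counts in at least 2 of 12 libraries (15811 of 16301 genes), and were tested by limma with trended empirical Bayes on group means, with calls at an adjusted p under 0.05. Both procedures were run on simulated data, which had no spread between cells beyond counting error and only independent libraries. These runs do not show how either procedure behaves with such spread or with related libraries. Replicate numbers in the bulk labels did not pair libraries. Software was Python 3.11.15, numpy 2.4.6, pandas 2.3.3, scipy 1.17.1, scanpy 1.11.5, leidenalg 0.10.2, matplotlib 3.10.9, R 4.3.3 and limma 3.58.1. Some single-gene results are not reported here.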

Additional observations from a re-analysis of the deposited data

How the results depend on the processing

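Depth limits the single-cell counts: genes with few UMIs in members have wide intervals. Without code 017, 018 or 072 the lower genes numbered 36, 53 or 46 in place of 19. Over the codes left out in turn the lower genes numbered 16 to 53 and the higher genes 40 to 55. The lower genes numbered 11 in ependymal-like clusters only, 12 in the 8 of them led by no other class, 42 against cells with 0 rule UMIs, 51 with each cell at the same weight and 129 at a ratio of 1.5, where 131 were higher; the cause was not tested. Thresholds of 3 and 8 rule UMIs gave 1057 and 373 members, and at resolution 2 the leading cluster held 24.6% of members. Peaks within 10 kb gave EP3 ratios of 1.73 for Pvalb and 1.49 for Sncg.

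Taking the close uninjured Foxj1-tdT pair as 1 library left counts of 1 and 0 called genes at 1 and 5 dpi in Foxj1-tdT, 0 between uninjured genotypes and 1 between genotypes at 5 dpi. At 5 dpi the genotype count was also 1 without a filter, and at 1 dpi it was 2 with a pseudocount of 8. Leaving out 1 library at a time gave 1 to 5 and 0 to 3 called genes in Foxj1-tdT (1 and 5 dpi), 0 to 2 and 3 to 7 in Foxj1-Olig2-tdT, and 0 to 4, 0 to 2 and 1 to 2 between genotypes (uninjured, 1 and 5 dpi). Leaving out a library also turned uncalled changes: Pvalb at 5 dpi in Foxj1-tdT ran from -0.45 to 0.48 (-0.11 without uninjured library 1, -0.45 without 5 dpi library 1, and -0.075 with quantile normalisation). Pvalb at 1 dpi in Foxj1-Olig2-tdT ran from -0.36 to 0.24 (0.0065 without uninjured library 2, 0.24 without 1 dpi library 1). Sncg there ran from -2.35 to 2.30 at 1 dpi (2.30 without uninjured library 1, 2.28 without 1 dpi library 2) and from -1.04 to 3.61 at 5 dpi (-1.04 without uninjured library 2). With the replicate number as a block, counts were 5, 2, 0, 6, 3, 0 and 1 in the order above, Caly between uninjured genotypes (adjusted p = 0.0592) and Sntn between genotypes at 5 dpi (0.0690) were lost and Sncg between uninjured genotypes was gained (0.0284). The count at 1 dpi in Foxj1-tdT also went from 4 to 5, by a gene outside those tracked singly. Same-numbered libraries correlated by -0.0296 to 0.0222 over 15 pairs of groups, so the numbers are not taken to pair libraries. Among alternative values for single bulk genes, 561 kept their direction and their side of the threshold, 63 lost the call, 16 gained it and 8 changed sign.
Leaving out the 2 unnamed clusters, keeping the 8 ependymal-like clusters led by no other class, choosing cells on 1 gene and the 10 kb distance for the companion genes were alternatives chosen after seeing the data.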

Other observations

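The data hold a few further values outside the lists described so far. Gas6 and Pltp, both secreted proteins, had ratios of 1.70 and 1.55 and were higher in members of 6 of 6 codes. Apoe and Mt3 had the lowest correlations with the rule genes across thinned cells (Spearman -0.229 and -0.187, a description over cells that share libraries) and ratios of 0.75 and 0.83. Interferon response and class I MHC genes had a ratio above 1 in 13 of 17 cases with a median of 1.18, while the summed list stood at 0.94.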
